A study of Mus musculus with 6 samples.

Results

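Fatty acid uptake and oxidation was followed through 31 genes, each matched by its symbol in a table of 54532 genes, in hearts collected on day 7 post-MI from WT and Crlf2-/- mice. Of the 31 genes, 30 passed the filter on low values and were tested, and *Cpt1b*, which did not, is given by its fragments. Each group had 3 mice with 1 library each, made from the infarct and the tissue around it. All mice were labelled C57BL/6 (C57BL/6J in the study's methods) and all had the left anterior descending coronary artery ligated, so no uninjured heart was compared. The Crlf2-/- mice are constitutive knockouts of the TSLP receptor chain on the same background. The labels give no age, and the study describes the WT mice as young adult males. Libraries are called by genotype and replicate (KO in the plots stands for Crlf2-/-), and 3 values in a row are always in the order of replicates 1, 2 and 3. Levels are FPKM, fragments scaled to gene length and library size, as deposited.

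In the healthy heart most ATP comes from fatty acids. They are freed from lipoproteins by lipoprotein lipase, cross the membrane with CD36 and fatty acid transport proteins, travel in the cytosol on fatty acid binding protein and are activated to acyl-CoA. The carnitine shuttle carries the acyl groups into the mitochondrion, where the spiral of β-oxidation shortens them by cycles of dehydrogenation, hydration, a second dehydrogenation and thiolysis, and the electrons pass through ETF to the respiratory chain. PPARα with its partner RXR drives transcription of many of these genes, and after infarction the pathway is known to decline in the surviving myocardium.

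The start regions of 4 of the genes are shown, and no test linked them to the differences between groups. *Pdk4* had the largest difference whose groups did not overlap, *Cd36* was among the most abundant, *Plin5* varied most between libraries, and *Hadhb* shares most of its start region with *Hadha*. Each is the RefSeq window of 300 bases, 250 before and 50 after the annotated start, on GRCm38.p6. Capitals mark the letters AGGTCA on either strand, the half-site of the nuclear receptor family to which PPARα and RXR belong, except in *Hadhb*, where they mark the 228 bases that lie also in the *Hadha* window.
Pdk4, chr6:5496229-5496528, minus strand: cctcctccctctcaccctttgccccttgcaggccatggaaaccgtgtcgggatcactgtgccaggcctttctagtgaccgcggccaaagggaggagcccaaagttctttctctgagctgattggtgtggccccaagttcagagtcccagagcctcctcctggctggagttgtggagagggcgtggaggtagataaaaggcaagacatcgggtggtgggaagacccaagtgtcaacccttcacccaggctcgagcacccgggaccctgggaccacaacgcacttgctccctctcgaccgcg
Cd36, chr5:17835847-17836146, minus strand: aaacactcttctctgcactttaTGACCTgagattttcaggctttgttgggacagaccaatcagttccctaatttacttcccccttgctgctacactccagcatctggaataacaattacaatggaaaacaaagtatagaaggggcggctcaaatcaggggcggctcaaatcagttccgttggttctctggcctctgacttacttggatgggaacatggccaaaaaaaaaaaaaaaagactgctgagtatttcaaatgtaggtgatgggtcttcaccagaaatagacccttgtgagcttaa
Plin5, chr17:56117499-56117798, minus strand: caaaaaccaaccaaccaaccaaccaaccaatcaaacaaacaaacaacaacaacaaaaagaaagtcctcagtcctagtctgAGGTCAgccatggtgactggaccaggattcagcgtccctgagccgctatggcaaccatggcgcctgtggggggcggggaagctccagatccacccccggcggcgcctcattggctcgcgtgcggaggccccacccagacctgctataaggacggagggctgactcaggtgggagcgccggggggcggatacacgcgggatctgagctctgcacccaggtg
Hadhb, chr5:30155003-30155302, plus strand: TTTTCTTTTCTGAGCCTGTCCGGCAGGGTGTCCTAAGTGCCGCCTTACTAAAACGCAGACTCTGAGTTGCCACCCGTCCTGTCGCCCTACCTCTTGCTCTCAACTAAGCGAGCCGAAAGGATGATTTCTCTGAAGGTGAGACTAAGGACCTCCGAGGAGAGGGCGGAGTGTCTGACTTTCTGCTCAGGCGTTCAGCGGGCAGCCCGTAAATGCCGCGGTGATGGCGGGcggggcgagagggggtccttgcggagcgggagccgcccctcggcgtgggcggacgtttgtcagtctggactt

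Windows were listed for 27 of the 31 genes, 31 windows in all. AGGTCA stood in 9 of these 31 windows (29.0%), against 16.3% of the 32851 windows of all genes. The 9 windows belonged to *Acacb*, *Acadm*, *Acadvl*, *Cd36*, *Cpt1a*, *Echs1*, *Plin5* (both of its windows) and *Ucp3*. The longer form TNAAGGTCA, which the estrogen-related receptors bind and which contains the first motif, stood in 0 of 31 windows and in 1.28% of all windows, both strands searched. These are matches of letters in short windows, with no measurement of binding. *Hadha* and *Hadhb*, the α and β subunits of the trifunctional protein, are read in opposite directions, from RefSeq starts 273 bases apart and from gene starts 86 bases apart in the deposited table.

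The libraries held 18508646 to 19682428 fragments on listed genes. *Crlf2*, the targeted gene, was listed at 26.6, 25.1 and 21.6 FPKM in WT and at 13.2, 18.7 and 19.8 FPKM in Crlf2-/- libraries, lower in each but present in all. Which exons these fragments came from is not given by values per gene. Crlf2-/- replicate 2 stood apart: *Myh4*, the fast skeletal muscle myosin, had 1508 fragments there and 0 in the other 5 libraries, and *Mylpf*, a fast skeletal muscle myosin light chain, was at 147 FPKM against 0.172 to 0.777. The counts over the pathway and the values of some genes are therefore also given without this library, since skeletal muscle expresses the same oxidation genes. All other values of single genes include it. The 13 cardiomyocyte markers were all present. Their mean log2 level relative to the WT mean was -0.51, 0.27 and 0.24 in WT and -1.24, -1.14 and -0.06 in Crlf2-/- libraries. *Myh6*, *Tnnt2* and *Actc1* had log2 fold changes of -1.17, -0.43 and -0.69, and the median over the 13 was -0.69 with 5 of them lower at an unadjusted p under 0.05 and 0 called. In bulk tissue, fewer cells of a type and less RNA per cell cannot be told apart. A protocol label speaks of retinas, but *Rcvrn* and *Crx*, defining retina genes, were at 0 in all 6 libraries.

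No gene of the pathway was called different between Crlf2-/- and WT hearts, but nearly all estimates lay on the same side. A gene was called when its adjusted p was 0.05 or less and its log2 fold change was 0.5 or more in either direction. Both were taken from limma on log2(FPKM + 0.1), with Benjamini-Hochberg adjustment over 15520 genes. This was met by 0.0129% of all genes tested and by 0 of the 30 pathway genes. At an unadjusted p under 0.05, 12 of the 30 were lower in Crlf2-/- hearts, against 3.36% of all genes, and 0 were higher, against 3.22%. The estimate was below 0 for 29 of the 30, against 50.9% of all genes, and the exception, *Slc27a1*, was at 0.00. On the scaled values, 12 of the 30 had groups without overlap, all lower in Crlf2-/- (6.37% of all genes were), and for 0 in the other direction (5.37%). The median log2 fold change was -0.28, against -0.004 over all genes, and the 95% interval reached 0.33 to each side of the estimate (median over the genes). Without Crlf2-/- replicate 2, 9 of the 30 were lower at an unadjusted p under 0.05 (2.81% of all genes) and the median was -0.25. Without WT replicate 2 there were 5 lower at that p (1.84% of all genes). Without Crlf2-/- replicate 3 the groups were apart and lower for 19, in a comparison of 3 against 2 that separates 11.6% of all genes in that direction.

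**Figure D1:**
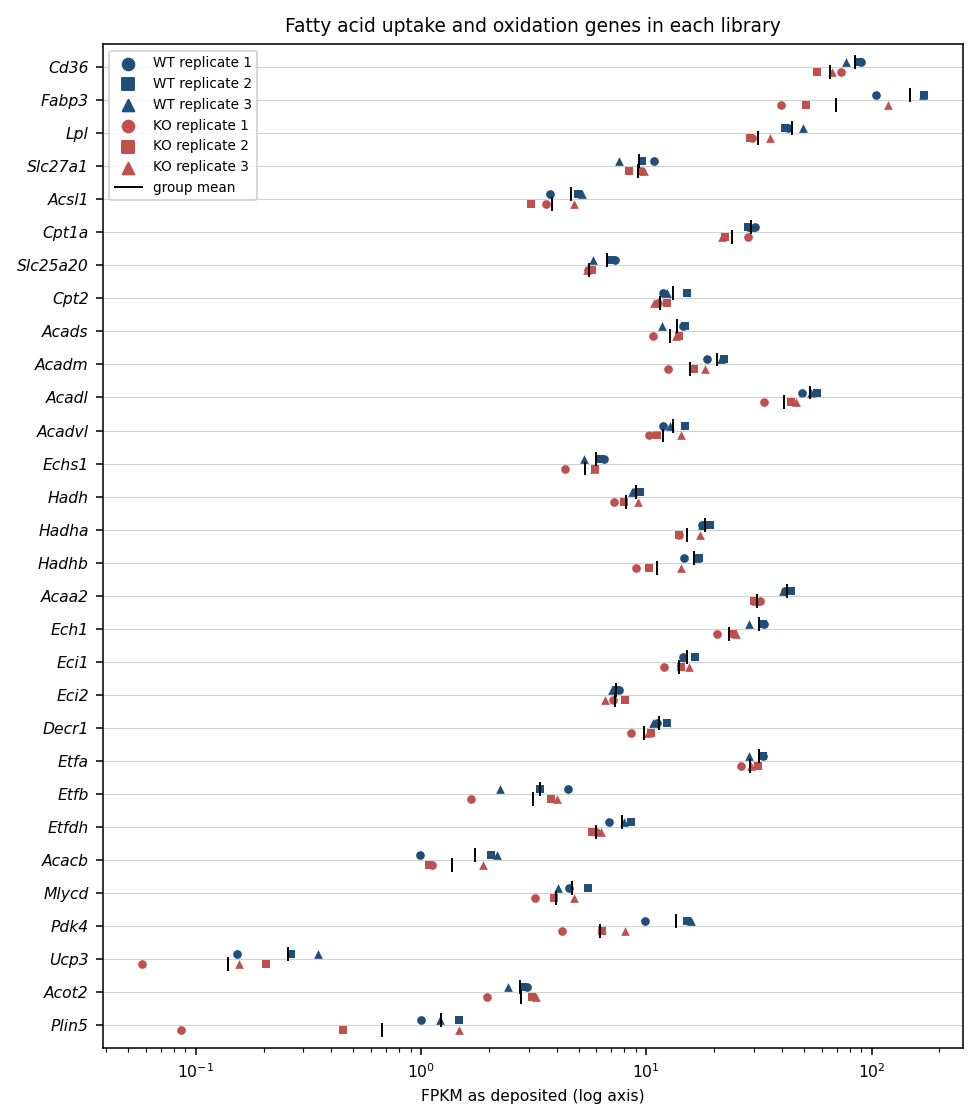
FPKM as deposited (horizontal log axis) of the 30 tested genes in each library, WT in blue and KO (Crlf2-/-) in red, with marker shapes for replicates and black ticks for group means. The genes span from *Ucp3* (mean over the 6 libraries 0.198 FPKM) to *Fabp3* (109 FPKM), and the red points lie to the left for most genes.

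The libraries did not contribute evenly. Crlf2-/- replicate 1 was the lowest of the 6 for 18 of the 30 genes (60.0%), a place it held for 19.6% of all genes tested. WT replicate 2 was the highest for 14 of the 30 (46.7%), against 14.3% of all genes. The mean log2 level of the 30 genes relative to the WT mean was -0.06, 0.09 and -0.03 in WT and -0.59, -0.35 and -0.12 in Crlf2-/- libraries. The groups did not overlap, and replicate 3 of the Crlf2-/- mice was nearest to WT. Cardiomyocyte markers put the same library nearest to WT, but they spread more widely within WT, where replicate 1 lay 0.51 below the mean while the fatty acid genes lay 0.06 below it. Each gene was also set against the mean of the cardiomyocyte markers in the same library, which was 0.81 lower in Crlf2-/-. This adds 0.81 to the log2 difference of every gene, so a positive value means only a log2 fold change above -0.81. In that sense 27 of the 30 genes had a positive difference, with a median of 0.54, and all genes tested had a median of 0.81. The share of all genes with a positive difference was not computed. It was positive for all 8 endothelial, all 8 fibroblast and all 8 macrophage markers, for 1 of 6 T cell genes and for 0 of 5 red blood cell genes. Within groups, the library medians of the 30 genes had an SD of 0.49 on this scale, against 0.09 without it. On that scale the groups were apart for 1 gene that was lower in Crlf2-/-, *Fabp3*, and for 1 that was higher, *Acacb*. The share of all genes apart on that scale was not computed, so these 2 genes are not read as a result. The 3 genes whose difference stayed below 0, those with the largest decreases of the 30, were *Fabp3* (-0.40), *Pdk4* (-0.32) and *Plin5* (-0.46). How much of the difference in the fatty acid genes goes with the cardiomyocyte markers was not tested.

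**Figure D2:**
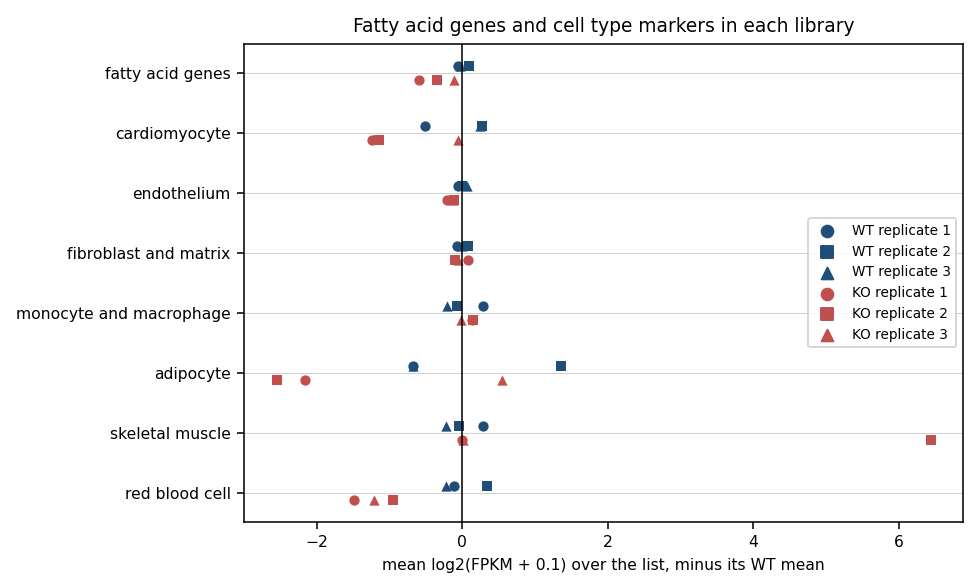
Mean log2(FPKM + 0.1) of each gene list in each library, minus the list's WT mean, with WT in blue and KO (Crlf2-/-) in red. The 30 tested fatty acid genes lie at -0.59, -0.35 and -0.12 in the 3 KO libraries, cardiomyocyte markers at -1.24, -1.14 and -0.06, and skeletal muscle markers at 6.44 in KO replicate 2 alone.

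Several other lists held genes whose groups were apart and lower in Crlf2-/-, as were 6.37% of all genes tested. The median log2 fold change of the 5 red blood cell genes was -1.29, with all 5 apart and lower. The 6 T cell genes had a median of -1.25, with 5 apart and lower. The 8 endothelial markers, from a cell type in which *Cd36*, *Lpl* and *Fabp4* proteins act on fatty acid transfer, had a median of -0.17, with 2 apart and lower. Of the 2 brown adipocyte markers only *Cidea* was tested, and it was apart at -1.11. The other, *Ucp1*, had 2 fragments in WT replicate 3 and 0 in every other library, so the list is not read as a cell type. Fibroblast and macrophage markers had medians of -0.05 and 0.10. Adipocyte markers, of which 4 were tested (median -1.76), were highest in WT replicate 2 and Crlf2-/- replicate 3 (summed level 70.6 and 32.5 FPKM) and lowest in Crlf2-/- replicates 2 and 1 (1.34 and 1.69 FPKM), so the groups overlapped. Their part in the results below was not tested.

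Genes of uptake and activation held the most abundant transcripts of the pathway and one of its largest differences. *Fabp3*, the heart form of fatty acid binding protein, was at 105, 171 and 169 FPKM in WT and at 39.8, 51.0 and 118 FPKM in Crlf2-/- hearts. Crlf2-/- replicates 1 and 2 were far below every WT library, but replicate 3 was above WT replicate 1, so the groups overlapped. The means were 148 ± 37.7 and 69.7 ± 42.5 FPKM (SD, n = 3), a fold of 2.32 on the fitted scale, with a log2 fold change of -1.21 (95% interval -2.11 to -0.32, limma unadjusted p = 0.0139, adjusted p = 0.518). *Fabp3* shares 19.6% of its exonic bases with genes on the opposite strand and 21.7% of its windows of 100 bases with a processed pseudogene, *Fabp3-ps1*. Its level is therefore less certain than those of the other abundant genes.

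*Cd36*, the main membrane transporter of long-chain fatty acids, was at 89.7, 87.9 and 76.7 FPKM in WT and at 73.1, 57.0 and 66.4 FPKM in Crlf2-/- hearts, with no overlap and Crlf2-/- replicate 2 the lowest. Its log2 fold change was -0.37 (limma unadjusted p = 0.0229, adjusted p = 0.619) and was -0.27 without that library (limma unadjusted p = 0.0891). *Lpl*, the lipase that frees fatty acids from lipoproteins, was at 42.7, 41.2 and 49.4 FPKM in WT and at 29.6, 28.8 and 35.5 FPKM in Crlf2-/- hearts. All 3 Crlf2-/- libraries lay below all 3 WT libraries, with a log2 fold change of -0.50 (95% interval -0.79 to -0.21, limma unadjusted p = 0.00396, adjusted p = 0.331). Without Crlf2-/- replicate 2 the value was -0.44.

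The other members of this group did not separate the genotypes. *Slc27a1*, a fatty acid transport protein, was at 10.8, 9.56 and 7.56 FPKM in WT and at 9.46, 8.35 and 9.78 FPKM in Crlf2-/- hearts, a difference of 0.00 with an interval from -0.34 to 0.34. *Acsl1*, the main long-chain acyl-CoA synthetase of heart, ranged from 3.07 to 5.20 FPKM over the 6 libraries and overlapped, with a log2 fold change of -0.28. The log2 ratio of *Lpl* to *Fabp3* was -1.71 ± 0.38 in WT and -0.99 ± 0.67 in Crlf2-/- hearts (SD, n = 3; exact permutation test, two-sided, p = 0.2, adjusted p = 0.4 over the 4 ratios computed; 3 against 3 cannot go below 0.1).

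In the carnitine shuttle, *Cpt1a*, the liver-type carnitine palmitoyltransferase that sets the rate of entry, was the most abundant of the 3 genes tested. It was at 30.4, 28.3 and 29.3 FPKM in WT and at 28.2, 22.3 and 21.6 FPKM in Crlf2-/- hearts. As deposited, the highest Crlf2-/- library lay just under the lowest WT library, and after scaling between libraries the groups overlapped. The log2 fold change was -0.29 (limma unadjusted p = 0.0497, adjusted p = 0.757). Without Crlf2-/- replicate 2 it was -0.24 (limma unadjusted p = 0.144). *Slc25a20*, the carnitine-acylcarnitine carrier, was lower without overlap but by little (6.69 ± 0.773 against 5.57 ± 0.152 FPKM, SD, n = 3; log2 fold change -0.25, limma unadjusted p = 0.0662). *Cpt2*, which returns the acyl group to CoA inside the mitochondrion, overlapped at -0.18.

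*Cpt1b* (ENSMUSG00000078937), the muscle-type enzyme of the same step, was nearly absent. Its fragments came to 1, 4 and 0 in WT and to 3, 4 and 2 in Crlf2-/- libraries, 0 to 0.0547 FPKM, so no fold is given and the 4 planned ratios that used it were not computed. The gene occupies chr15:89416405-89425863 (minus strand), and 81.4% of its exonic bases are also exonic in *Gm44502*, a read-through gene on the same strand that is listed at 0 in all 6 libraries. *Chkb*, the upstream neighbour that the read-through also covers, was at 0.0598 to 0.130 FPKM. Whether fragments in shared exons were left out of the counting was not tested, so these values are not read as the level of its transcript.

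*Etfb*, the β subunit of the electron transfer flavoprotein, had the next largest share, 58.2% on the same strand, with *Gm45233*, which was at 0, and a microRNA gene. It was at 3.26 FPKM on average over the 6 libraries, while its partner *Etfa*, the α subunit, was at 30.2 FPKM and shares no exon. *Acadvl* shares 42.9% with *Dvl2* on the opposite strand. Whether the counting used strand is not given in the sources used here.

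**Figure D3:**
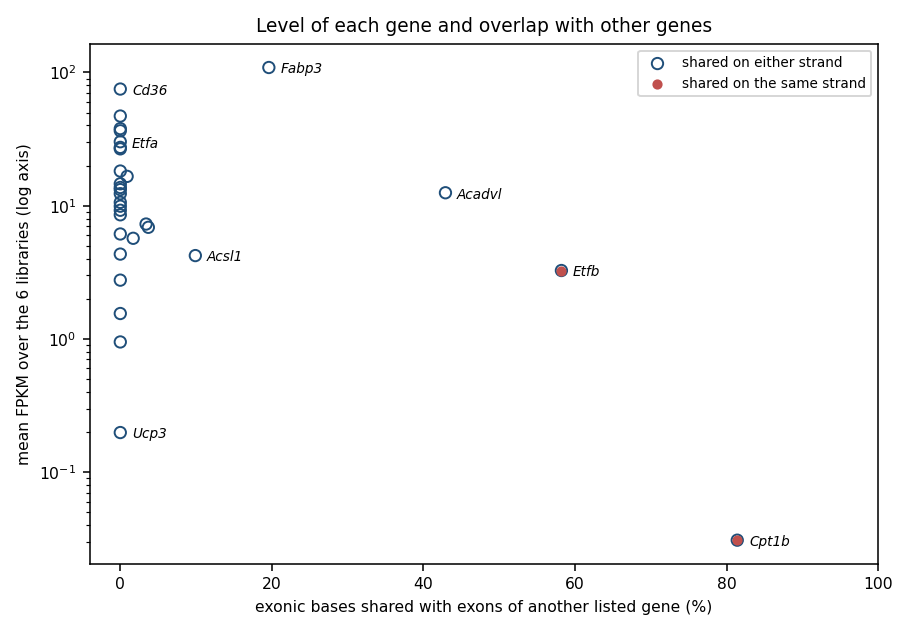
Mean FPKM over the 6 libraries (vertical log axis) of the 31 genes against the share of their exonic bases (%) that are exonic in another listed gene. Open circles count either strand and filled circles the same strand, and *Cpt1b* (81.4%) and *Etfb* (58.2%) are the pair with sharing on the same strand.

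The acyl-CoA dehydrogenases, which open each turn of the spiral at different chain lengths, were lower for medium and long chains and closer to WT for the others. *Acadm*, for medium chains, was at 18.6, 22.1 and 21.4 FPKM in WT and at 12.5, 16.3 and 18.3 FPKM in Crlf2-/- hearts, with the highest Crlf2-/- library just under the lowest WT library. The log2 fold change was -0.41 (95% interval -0.75 to -0.06, limma unadjusted p = 0.0254, adjusted p = 0.635). *Acadl*, for long chains, was at 49.0, 57.1 and 53.6 FPKM in WT and at 33.3, 43.7 and 46.0 FPKM in Crlf2-/- hearts. Again the groups were apart and Crlf2-/- replicate 1 was the lowest, with a log2 fold change of -0.38 (limma unadjusted p = 0.0269, adjusted p = 0.646). Without that replicate both estimates were smaller, -0.26 for *Acadm* and -0.24 for *Acadl*. *Acads*, for short chains, was at 14.6, 14.9 and 11.7 FPKM in WT and at 10.7, 14.0 and 13.5 FPKM in Crlf2-/- hearts, and its estimate of -0.10 became 0.01 without that replicate. *Acadvl*, for very long chains, overlapped at -0.15. No test compared these genes with each other.

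Among the later steps of the spiral, *Acaa2*, a thiolase of the last step, had the smallest p of the pathway. It was at 41.4, 43.9 and 40.6 FPKM in WT and at 32.1, 30.2 and 30.7 FPKM in Crlf2-/- hearts. The 3 libraries of each group lay close together and far from the other group, and unlike most members *Acaa2* was no lower in Crlf2-/- replicate 1 than in the other 2. The means were 42.0 ± 1.72 and 31.0 ± 0.990 FPKM (SD, n = 3), with a log2 fold change of -0.43 (95% interval -0.65 to -0.22, limma unadjusted p = 0.00175, adjusted p = 0.254). Leaving out each library in turn gave -0.46 to -0.41. In a Wald test with a negative binomial model of the fragments its adjusted p was 0.0112, but its size stayed under the threshold for a call.

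The trifunctional protein carries out the last 3 reactions on long chains. Transcripts of both of its subunits had estimates below 0, and neither was called. *Hadhb* was at 14.7, 17.1 and 16.8 FPKM in WT and at 8.99, 10.3 and 14.2 FPKM in Crlf2-/- hearts, with all Crlf2-/- libraries under all WT libraries and replicate 3 close to them. Its log2 fold change was -0.55 (95% interval -0.94 to -0.17, limma unadjusted p = 0.0108, adjusted p = 0.483). *Hadha* was at 17.7, 19.2 and 17.6 FPKM in WT and at 13.9, 14.0 and 17.3 FPKM in Crlf2-/- hearts, barely apart, with a log2 fold change of -0.27 (limma unadjusted p = 0.0477, adjusted p = 0.753). Without Crlf2-/- replicate 2 the *Hadha* value was -0.22 (limma unadjusted p = 0.145). The log2 ratio of *Hadha* to *Hadhb*, whose start regions overlap in the stretch printed in capitals above, was 0.17 ± 0.10 in WT and 0.45 ± 0.17 in Crlf2-/- hearts (SD, n = 3). Its difference of 0.28 separated the groups (two-sided exact permutation test, p = 0.1, the lowest possible; adjusted p = 0.4). In *Hadhb*, 14.8% of the windows of 100 bases occur in other transcripts, among them processed pseudogenes. *Echs1*, the short-chain hydratase, and *Hadh*, the short-chain dehydrogenase, overlapped at -0.16 and -0.14.

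Of the auxiliary enzymes for unsaturated chains, *Ech1*, a dienoyl-CoA isomerase, had the largest difference. It was at 33.3, 32.8 and 28.7 FPKM in WT and at 20.5, 24.2 and 25.1 FPKM in Crlf2-/- hearts, with no overlap and a log2 fold change of -0.44 (95% interval -0.71 to -0.17, limma unadjusted p = 0.00582, adjusted p = 0.369). *Decr1*, the dienoyl-CoA reductase, was apart by little, at -0.22 (limma unadjusted p = 0.0874). The enoyl-CoA isomerases showed small estimates: *Eci1* overlapped at -0.12, and *Eci2* was at 7.56, 7.35 and 7.06 FPKM in WT and at 7.12, 8.07 and 6.54 FPKM in Crlf2-/- hearts. The *Eci2* difference of -0.02 had an interval from -0.27 to 0.24, and its highest library was only 1.23 times its lowest, the narrowest range of the 30 genes.

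In electron transfer, *Etfdh*, the dehydrogenase that passes electrons to ubiquinone, was at 6.83, 8.54 and 7.92 FPKM in WT and at 5.97, 5.74 and 6.30 FPKM in Crlf2-/- hearts. The groups were apart, with a log2 fold change of -0.36 (95% interval -0.62 to -0.09, limma unadjusted p = 0.0138, adjusted p = 0.518). *Etfa* and *Etfb* overlapped at -0.12 and -0.14, with an interval for *Etfb* from -0.97 to 0.69. The log2 ratio of *Etfa* to *Etfb* was 3.23 ± 0.39 in WT and 3.25 ± 0.57 in Crlf2-/- hearts (SD, n = 3; exact permutation test, two-sided, p = 1.0).

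The regulators and side branches ranged from *Plin5* (-1.27) to *Acot2* (-0.00) in their log2 fold changes. *Pdk4* (ENSMUSG00000019577, minus strand of chromosome 6, from 5483351 to 5496309) encodes the kinase that switches off pyruvate dehydrogenase when fatty acids are burned. It was at 9.88, 15.1 and 15.8 FPKM in WT and at 4.21, 6.37 and 8.05 FPKM in Crlf2-/- hearts, or 799, 1152 and 1213 against 328, 522 and 637 fragments. Each Crlf2-/- library was under each WT library, and replicate 1 was the lowest of its group in both genotypes. The means were 13.6 ± 3.24 and 6.21 ± 1.92 FPKM (SD, n = 3), a fold of 2.19 on the fitted scale, with a log2 fold change of -1.13 (95% interval -1.72 to -0.54, limma unadjusted p = 0.00225, adjusted p = 0.263). Without Crlf2-/- replicate 2 the value was -1.17. In the negative binomial Wald test, which called 1.07% of all genes, *Pdk4* was the 1 pathway gene called, with an adjusted p of 0.00247.

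*Plin5*, a lipid droplet coat protein that hands fatty acids to mitochondria, was at 0.999, 1.48 and 1.21 FPKM in WT and at 0.0864, 0.452 and 1.47 FPKM in Crlf2-/- hearts. Replicate 1 of the Crlf2-/- mice had almost none and replicate 3 was at the level of the highest WT library, a range of 17.1 times. Its log2 fold change of -1.27 had an interval from -2.79 to 0.25, and it was -0.50 without replicate 1 and -2.03 without replicate 3. *Ucp3*, the muscle uncoupling protein, was at 0.152, 0.265 and 0.350 FPKM in WT and at 0.0575, 0.205 and 0.156 FPKM in Crlf2-/- hearts, with overlap and a log2 fold change of -0.58 (95% interval -1.34 to 0.17). These values rest on few fragments, 11, 18 and 24 in WT and 4, 15 and 11 in Crlf2-/- libraries. The negative binomial estimate for *Ucp3* was -0.85.

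Malonyl-CoA, the inhibitor of CPT1, is made by acetyl-CoA carboxylase 2 (*Acacb*) and removed by malonyl-CoA decarboxylase (*Mlycd*). *Acacb* was at 0.992, 2.04 and 2.18 FPKM in WT and at 1.12, 1.09 and 1.89 FPKM in Crlf2-/- hearts, and *Mlycd* at 4.52, 5.50 and 4.05 against 3.21, 3.91 and 4.78 FPKM. Both overlapped, with log2 fold changes of -0.29 and -0.24. Their log2 ratio was -1.45 ± 0.61 in WT and -1.49 ± 0.23 in Crlf2-/- hearts (SD, n = 3; exact permutation test, two-sided, p = 0.9). *Acot2*, a mitochondrial acyl-CoA thioesterase, was at 2.95, 2.84 and 2.44 FPKM in WT and at 1.97, 3.12 and 3.25 FPKM in Crlf2-/- hearts, with an interval from -0.46 to 0.46. It shares 17.1% of its windows of 100 bases with transcripts of its paralog *Acot1*.

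**Figure D4:**
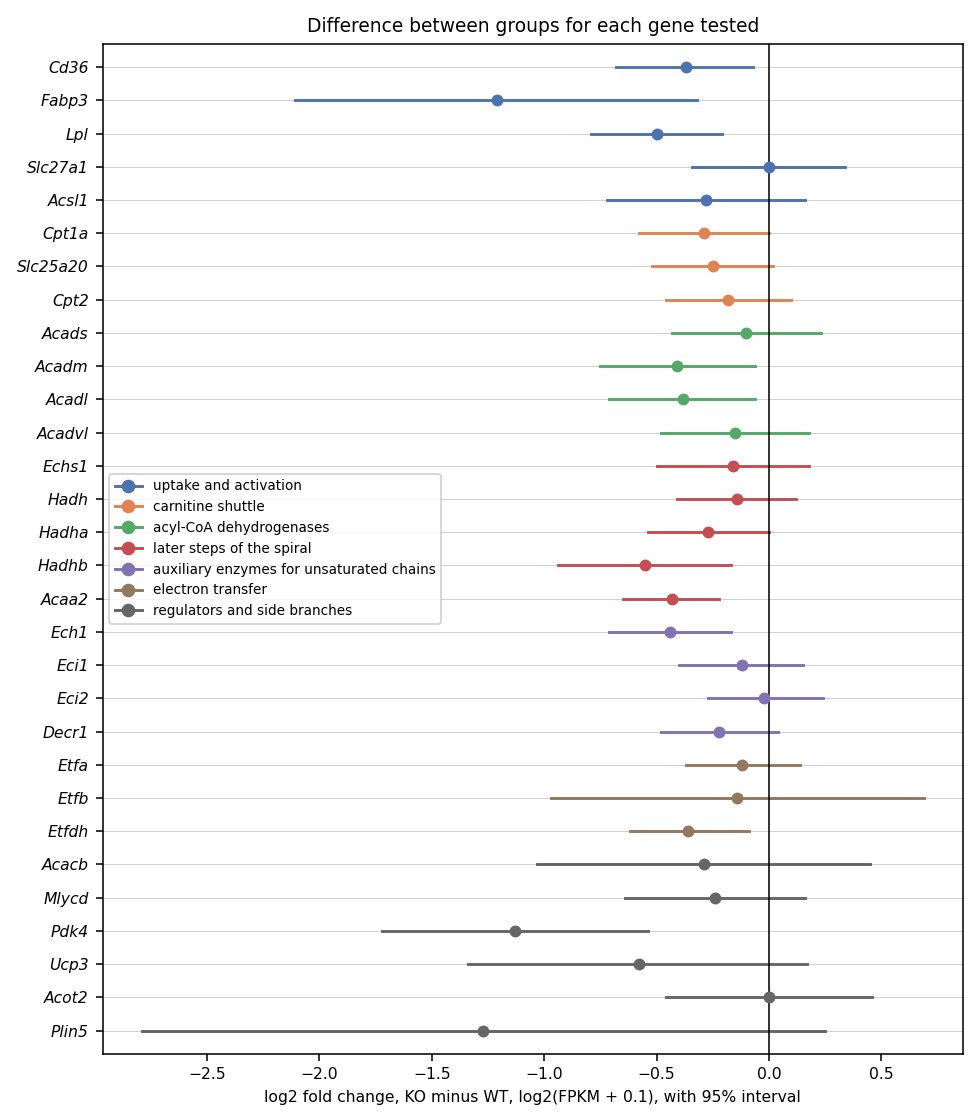
Log2 fold change (KO, Crlf2-/-, minus WT; horizontal axis) of the 30 tested genes with 95% intervals from limma, coloured by role. The intervals of 12 genes lie below 0 and those of 18 hold 0, with *Fabp3* (-1.21), *Pdk4* (-1.13) and *Plin5* (-1.27) farthest to the left.

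Genes of related functions were read for comparison. Of 79 related genes listed, 78 were tested, 0 were called by limma, 8 were lower at an unadjusted p under 0.05 (3.36% of all genes were) and 0 higher (3.22%). Among transcriptional regulators (14 tested, median -0.22, 11 estimates below 0), *Ppara* was at 0.249, 0.241 and 0.608 FPKM in WT and at 0.247, 0.145 and 0.463 FPKM in Crlf2-/- hearts and overlapped. *Rxra*, the partner of PPARα, was at -0.23 with the groups apart (limma unadjusted p = 0.0433). *Klf15* and *Perm1*, regulators of heart energy genes, were at -0.71 and -0.75 and overlapped (limma unadjusted p = 0.0248 and 0.0462). The coactivator *Ppargc1a* was at -0.48 and *Esrra*, an estrogen-related receptor, at 0.07, both with overlap.

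Among other uptake genes (18 tested, median -0.07), *Fabp4*, the fatty acid binding protein of endothelium and adipocytes, was at 33.4, 37.4 and 27.2 FPKM in WT and at 15.6, 21.4 and 24.2 FPKM in Crlf2-/- hearts. The groups were apart, with a log2 fold change of -0.69 (limma unadjusted p = 0.00542, adjusted p = 0.364), and the negative binomial Wald test called it. *Angptl4*, a secreted inhibitor of lipoprotein lipase, was at -0.89 with overlap (limma unadjusted p = 0.0172), and *Acsl4*, an acyl-CoA synthetase, at 0.34 with overlap. Of ketone body genes, 5 were tested. *Oxct1*, the enzyme of ketone use, overlapped at -0.06, and *Acat1*, the thiolase of the same route, was apart at -0.17.

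Peroxisomal genes (15 tested, median -0.13) had 5 apart and lower (6.37% of all genes were), by small amounts: *Crot* at -0.23 and *Pecr* at -0.37 had unadjusted limma p of 0.0352 and 0.0332, and *Abcd3* was at -0.21. Other mitochondrial acyl-CoA enzymes (14 tested, median -0.15) had 0 at an unadjusted p under 0.05 in either direction, with *Hibadh* at -0.18, *Acad11* at -0.21 and *Aldh6a1* at -0.20. In lipid droplet and triglyceride turnover, 11 of 12 estimates were below 0 and the median was -0.27, with *Pnpla2*, the main triglyceride lipase, at -0.27, *Lipe* at -0.35 and *Plin2*, the common droplet coat, at -0.53, all with overlap.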

How the data were processed

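The authors aligned the reads with HISAT2 2.0.5 (version per the labels, which list mm10 and hg38), counted fragments with featureCounts and deposited FPKM with gene lengths. FPKM times length gave whole fragments for 100% of nonzero values (within 0.05), and the filter (10 fragments or more in 3 libraries, 15 in total; 15520 genes) used them. Deposited FPKM, after TMM scaling (trimmed mean of M values), were tested as log2(FPKM + 0.1) with limma 3.58.1 (trend, robust) in R 4.3.3, which understates changes of low genes. Count models were used only as alternatives. Replicates were taken as separate mice from the labels. Each limma p-value sets the difference between groups against the spread between libraries within groups, moderated over all genes tested. Ratios were tested with exact permutation. Exon sharing came from GENCODE M21, in which 28 of the 31 genes have the same coordinates; *Acaa2*, *Cpt1a* and *Eci1* differ. Promoters came from RefSeq.

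The 31 genes, related lists, markers and alternatives were chosen with earlier results of these data known. All members are named. Values per library are given for the 10 smallest p, the 4 smallest differences, the 3 most abundant and 11 genes chosen by role; up to 3 related genes per list were named by p, and 7 by role, of which some are not reported here. Alternatives were other pseudocounts, filters and scalings, a replicate block, voom, a negative binomial Wald test and leaving out each library. The count of members at an unadjusted p under 0.05 was added later. Scripts were tested on simulated data. Other steps ran in Python 3.11.15 (pandas 2.3.3, numpy 2.4.6, matplotlib 3.10.9, scipy 1.17.1).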

Additional observations from a re-analysis of the deposited data

How the results depend on the processing

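With 3 mice per group, differences under about 0.33 on the log2 scale lie within the median interval of the pathway genes. limma called 2 genes of all tested, and 1 with 10 fragments required in every library, 6 with no filter, 4 with the replicate number as a replicate block and 166 by the negative binomial Wald test, which called 1 pathway gene (*Pdk4*) and 2 related genes. The replicate numbers were not taken as pairs, since same-numbered libraries deviated together with r of -0.016, 0.115 and 0.12, and not every library correlated best with its own number. The block moved no pathway gene past the thresholds. Leaving out each library in turn gave 1 to 14 genes called and 0 pathway genes called. That was 14 without Crlf2-/- replicate 1, 8 without WT replicate 3, and 1 without Crlf2-/- replicate 3, WT replicate 1 or WT replicate 2. At an unadjusted limma p under 0.05 there were 5 to 13 pathway genes, and the pathway medians ran from -0.38 to -0.23. At that p, 1.84% of all genes were lower without WT replicate 2 and 2.81% without Crlf2-/- replicate 2. Groups were apart for 13 to 19 pathway genes, each time in a comparison of 3 against 2. Without Crlf2-/- replicate 3, 11.6% of all genes were apart and lower, against 6.37% with all 6 libraries. The other shares of all genes were not computed. Of 418 values of single genes under alternatives, 400 kept their direction and side of the threshold, 1 passed it (*Pdk4*, -1.12 by the negative binomial Wald test) and 17 changed sign, all of 5 genes whose own estimate lay between -0.14 and 0.00. *Slc27a1* was -0.02 by the Wald test, -0.003 without scaling, -0.0009 with a pseudocount of 1 and -0.0005 by voom, and *Acot2* was 0.03 by the Wald test and 0.003 with a pseudocount of 1. Leaving out libraries gave -0.14 to 0.12 for *Slc27a1*, -0.13 to 0.22 for *Acot2*, -0.22 to 0.01 for *Acads*, -0.09 to 0.05 for *Eci2* and -0.40 to 0.25 for *Etfb*. For all of these, the cause was not tested.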
